A study of Drosophila melanogaster with 2 samples.

Results

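The 8 homeotic genes of Drosophila melanogaster, labial (lab), proboscipedia (pb), Deformed (Dfd), Sex combs reduced (Scr), Antennapedia (Antp), Ultrabithorax (Ubx), abdominal A (abd-A) and Abdominal B (Abd-B), were examined for binding of Zelda. They were taken by symbol from 13968 annotated protein-coding genes, and all 8 were found on arm 3R, 5 in the Antennapedia complex and 3 in the bithorax complex, with the same coordinates in the Ensembl and NCBI annotations. Every peak summit within each gene extended by 10 kb, or in the stretches between the genes of a complex, was listed, which gave 180 of the 30000 summits of the pooled peak list, 95 in the Antennapedia complex and 85 in the bithorax complex. The data come from chromatin immunoprecipitation and sequencing (ChIP-seq) of embryos of both sexes, aged 0 to 24 hours, with 1 group of 2 biological replicates numbered 2 and 3, with no second genotype or treatment. The flies were 1 transgenic line (strain vfl-GFP) that stably expressed Zelda with GFP fused to its C-terminus. The description of the samples names an antibody against GFP, whereas the antibody field reads vfl, another name of zld. Whole embryos of all these ages were mixed, so the time and the tissue of binding cannot be told apart in these lists.

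Homeotic genes encode homeodomain transcription factors that give each segment its identity, and their order along the chromosome follows the order of the body parts they specify. lab, pb, Dfd and Scr act in the head, with Scr also in the first thoracic segment, Antp acts in the thorax, Ubx in the posterior thorax and first abdominal segment, and abd-A and Abd-B in the abdomen. Gap and pair-rule proteins set their early domains through long cis-regulatory regions, and Polycomb and trithorax group proteins then keep them silent or active. Zelda is a zinc finger pioneer factor of the early embryo that opens enhancers for such patterning factors, and its textbook site is CAGGTAG.

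Of the 180 listed summits, 9 (5.0%, 95% Wilson interval 2.65 to 9.23) were in the authors' thresholded list of 2876 peaks, which kept 9.59% of all pooled peaks. Within 500 bp of a coding start lay 64.5% of thresholded peaks, 30.9% of all pooled peaks and 15% of the listed summits. The part of this in the lower share kept here was not tested. None of the 9 thresholded summits lay within 1 kb of an annotated start of a homeotic gene. They lay in introns of Antp and abd-A, in the long non-coding stretches of the bithorax complex, and at the starts of neighbouring genes. Thresholded peaks were the strongest pooled peaks by the authors' signal, a value of at least 61.8 in that list, and rank 1 is the strongest peak of a list. The sequences of 5 of the thresholded summits are shown as examples, with 4 weaker summits at lab, Dfd and Scr, all as the plus strand of dm6 (NCBI Release 6). Capitals mark CAGGTAG and its relatives CAGGTAA (relative 1), TAGGTAG (relative 2), CAGGCAG (relative 3) and CAGGTAT (relative 4), as well as TATCGATA (the word of DREF) and GGTCACAC (the word of M1BP), each read on either strand, and a sequence with no capitals holds none of them.
Between Ubx and abd-A, summit 16798887, chr3R:16798787-16798987: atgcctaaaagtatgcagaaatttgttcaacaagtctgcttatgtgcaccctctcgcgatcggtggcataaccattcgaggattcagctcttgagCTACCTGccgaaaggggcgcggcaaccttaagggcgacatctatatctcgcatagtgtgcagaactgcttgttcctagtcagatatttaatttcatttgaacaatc
Between abd-A and Abd-B, summit 16886684, chr3R:16886584-16886784: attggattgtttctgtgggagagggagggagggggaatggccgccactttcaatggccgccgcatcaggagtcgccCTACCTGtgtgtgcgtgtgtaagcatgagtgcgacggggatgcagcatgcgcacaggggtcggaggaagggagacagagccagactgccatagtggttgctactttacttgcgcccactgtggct
abd-A intron, summit 16811860, chr3R:16811760-16811960: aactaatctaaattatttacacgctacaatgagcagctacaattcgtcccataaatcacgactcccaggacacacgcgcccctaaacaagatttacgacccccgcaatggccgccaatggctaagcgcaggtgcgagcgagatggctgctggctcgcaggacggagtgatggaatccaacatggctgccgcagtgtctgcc
Antp intron, summit 6912501, chr3R:6912401-6912601: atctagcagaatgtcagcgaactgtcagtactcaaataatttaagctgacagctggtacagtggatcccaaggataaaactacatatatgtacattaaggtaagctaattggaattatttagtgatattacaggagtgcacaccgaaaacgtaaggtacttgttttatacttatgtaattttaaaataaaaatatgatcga
Beyond the 3′ end of Ubx, summit 16647060, chr3R:16646960-16647160: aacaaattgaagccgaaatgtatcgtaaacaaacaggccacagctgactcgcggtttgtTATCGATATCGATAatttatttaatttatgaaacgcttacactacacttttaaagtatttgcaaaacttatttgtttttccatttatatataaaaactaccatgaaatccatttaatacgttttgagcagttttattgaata
Beyond the 3′ end of lab, summit 6660107, chr3R:6660007-6660207: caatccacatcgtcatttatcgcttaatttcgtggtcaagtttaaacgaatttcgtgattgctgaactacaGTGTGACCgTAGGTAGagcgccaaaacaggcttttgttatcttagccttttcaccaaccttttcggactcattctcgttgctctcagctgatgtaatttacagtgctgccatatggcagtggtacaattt
lab, downstream of its inner start, summit 6662994, chr3R:6662894-6663094: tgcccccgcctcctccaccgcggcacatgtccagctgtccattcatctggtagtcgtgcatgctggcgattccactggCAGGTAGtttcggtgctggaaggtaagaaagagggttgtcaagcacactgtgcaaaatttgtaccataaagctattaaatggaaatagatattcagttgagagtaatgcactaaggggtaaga
Dfd, upstream of its start, summit 6791597, chr3R:6791497-6791697: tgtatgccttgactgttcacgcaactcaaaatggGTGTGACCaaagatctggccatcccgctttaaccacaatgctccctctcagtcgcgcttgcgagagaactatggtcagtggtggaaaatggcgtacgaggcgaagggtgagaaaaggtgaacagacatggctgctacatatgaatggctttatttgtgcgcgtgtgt
Scr, upstream of its inner start, summit 6848705, chr3R:6848605-6848805: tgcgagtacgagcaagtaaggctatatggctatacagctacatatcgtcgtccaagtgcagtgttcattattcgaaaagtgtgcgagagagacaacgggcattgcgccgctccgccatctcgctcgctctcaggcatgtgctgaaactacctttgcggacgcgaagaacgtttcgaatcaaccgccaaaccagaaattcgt

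The strongest summit of either complex lay in the bithorax complex at 3R position 16798887, in intergenic sequence between Ubx and abd-A. Its signal was 94.0 in the pooled list (rank 1285), 65.0 in replicate 2 (rank 962) and 30.1 in replicate 3 (rank 2676), on scales that are not comparable between lists. It lay 8.33 kb beyond the 3′ end of abd-A, and 2 bp from the centre of a CAGGTAG. A second thresholded summit of the same stretch, at 16794421, had a signal of 67.1 (rank 2482) and ranked 2214 in replicate 2 and 6254 in replicate 3. No word marked above lay within 100 bp of it. Both were nearest to the start of Glut3, a sugar transporter gene that lies within the complex, at 10.6 and 6.11 kb.

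The other 3 thresholded summits of the bithorax complex were in the abd-A gene, in the stretch toward Abd-B and past the 3′ end of Ubx. The summit at 16811860 lay in an abd-A intron, 16.2 kb downstream of the nearest abd-A start, with a signal of 89.1 (rank 1451) and ranks of 2133 in replicate 2 and 892 in replicate 3. Its 201 bases held 4 GCCAT, the core word of the Polycomb recruiter Pho, and a CAGGTAG was centred 110 bp from the summit, just outside the shown window. The summit at 16886684 lay in the stretch between abd-A and Abd-B, in an intron of MSAmiP. The transcription unit of the long non-coding RNA iab8 spans it too. This summit had a signal of 75.0 (rank 1998) and ranks of 3293 and 1316. CAGGTAG was centred 21 bp from it, beside 3 GCCAT. The summit at 16647060 lay 9.56 kb beyond the 3′ end of Ubx and 56 bp upstream of the start of CG10324, with a signal of 70.5 (rank 2229) and ranks of 3886 and 1372. It held a pair of overlapping TATCGATA and none of the Zelda words.

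In the Antennapedia complex, 2 of 4 thresholded summits were in introns of Antp and the other two at starts of genes between pb and Dfd. The Antp summit at 6912501 had a signal of 81.4 (rank 1718) and ranked 1459 in replicate 2 and 2600 in replicate 3. The Antp summit at 6920154 had a signal of 70.0 (rank 2255) and ranked 1676 in replicate 2 but 6389 in replicate 3. They lay 20.3 and 12.7 kb downstream of the Antp start at 6932840, and neither held CAGGTAG or a relative. The strongest summit of the complex, at 6759664, lay 198 bp upstream of bcd, which encodes the maternal anterior determinant Bicoid, with a signal of 89.2 (rank 1445) and ranks of 1387 and 2215. The fourth, at 6763138, lay 266 bp upstream of a start of Ama, which encodes the immunoglobulin-domain protein Amalgam, with a signal of 62.9 (rank 2770). It held a CAGGTAA, and its nearest replicate summits ranked 5809 and 3192. Replicate 2 held a stronger summit within 200 bp, at 6763008 (signal 40.9, rank 2284).

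**Figure D1:**
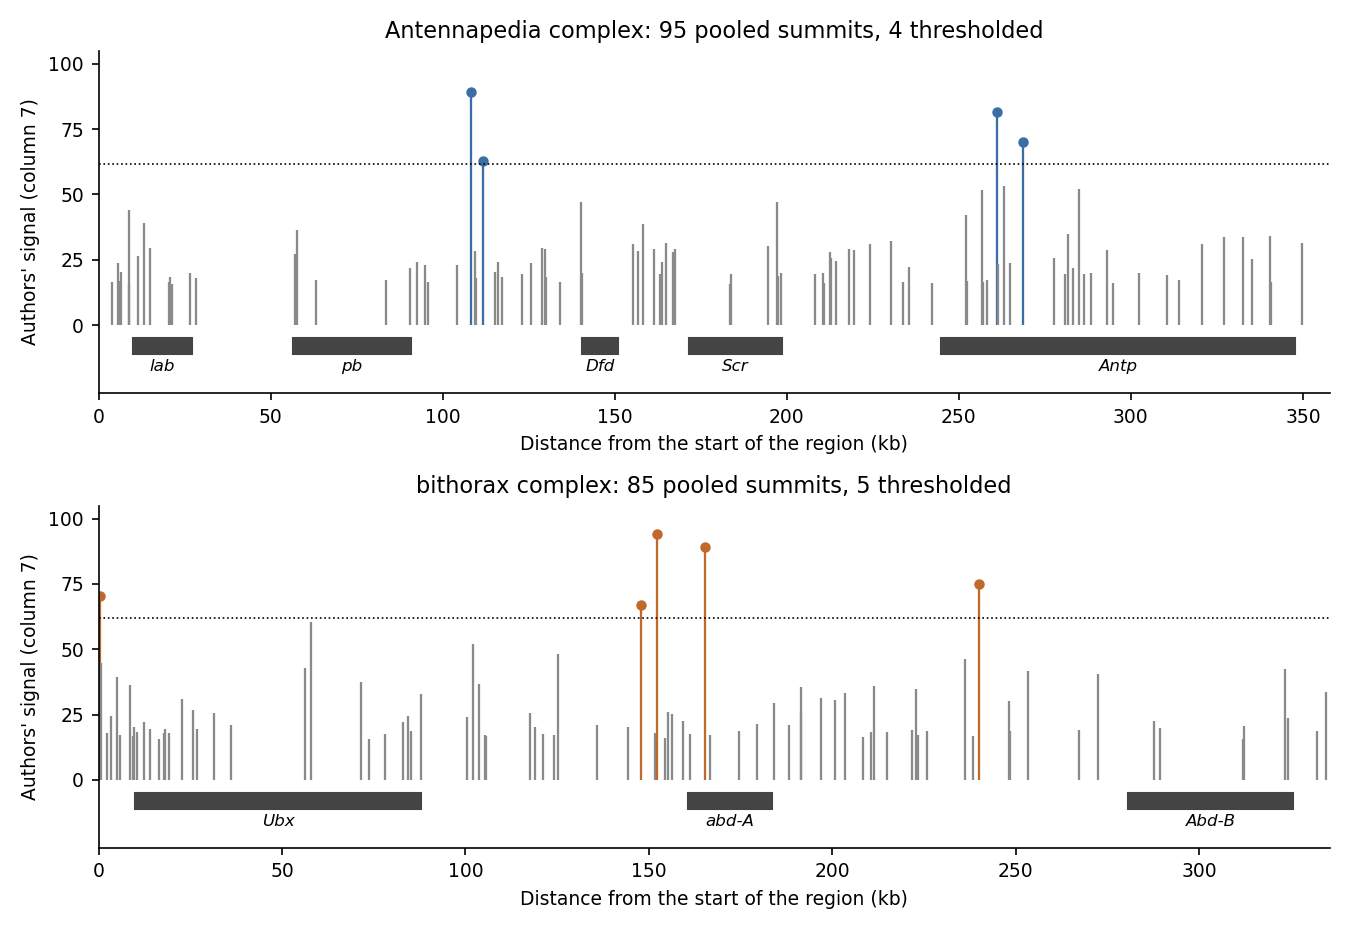
Authors' signal of the pooled summits (vertical lines) along the Antennapedia complex (top) and the bithorax complex (bottom), each extended by 10 kb and measured in kb from its lower-coordinate end, with the homeotic genes as boxes. Coloured lines with dots are the 4 and 5 thresholded summits, which stand above the dotted line at a signal of 61.8, and none stands at a homeotic start.

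A thresholded summit lay in the gene or within 10 kb of it for 3 of the 8 homeotic genes, Antp, Ubx and abd-A (37.5%, interval 13.7 to 69.4). The same was true of 53.3% of all coding genes, and of 59.1% of the 1873 coding genes at least as long as Dfd, the shortest homeotic gene. With 8 genes the interval takes in both shares. Only Antp and abd-A had a thresholded summit inside the gene, and with the strongest 2876 peaks of replicate 3 in place of the thresholded list 5 genes were counted, with replicate 2 alone 3. For these settings the shares of all coding genes were not computed. Every homeotic gene had pooled summits within 10 kb, as did 12520 of all 13968 coding genes and 1754 of the 1873 at least as long as Dfd. The best ranks of the homeotic genes are given next by body order.

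For lab, the most anterior gene (3R 6661427 to 6678590, minus strand), the pooled list held 14 summits within 10 kb, replicate 2 held 11 and replicate 3 held 12. The strongest, at 6660107, had a pooled signal of 43.9 (rank 5031) and lay 7 bp upstream of agt, a DNA repair gene next to lab, not at lab. The best rank was 7672 in replicate 2 and 2786 in replicate 3. The latter was another summit, at 6664585 in a lab intron, 1131 bp upstream of the inner start. It had no replicate 2 summit within 200 bp. For pb (6707800 to 6742063, minus strand), which controls mouthpart identity, 8 pooled, 8 replicate 2 and 7 replicate 3 summits were listed, and the best ranks were 6948 in the pooled list, 7253 in replicate 2 and 7242 in replicate 3. The pooled one, at 6709063 in a pb intron, had a signal of 36.3.

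Dfd (6791836 to 6802428, plus strand), a maxillary and mandibular gene, had no pooled summit inside the gene and 6 within 10 kb. The strongest lay 239 bp upstream of its start at 6791597, with a signal of 47.2 (rank 4454) and ranks of 5223 in replicate 2 and 7091 in replicate 3. A weaker pooled summit at 6791800, 36 bp upstream of the start (rank 20485), was matched to the same replicate summits. Scr (6823120 to 6849981, minus strand) had 12 pooled summits within 10 kb. The strongest lay 200 bp upstream of its inner start at 6848505, with a signal of 47.3 (rank 4443) and ranks of 6133 and 4041. Dfd and Scr were neighbours in the order of the genes, which differed between the replicates' best ranks, 5223 for Dfd and 5299 for Scr in replicate 2 and 3665 and 3027 in replicate 3.

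Antp (6896253 to 6999228, minus strand), the longest of the 8 at 103 kb, had 28 pooled summits inside the gene, 32 in replicate 2 and 32 in replicate 3. Beside its thresholded pair it held 3 of the 10 strongest summits of its complex below the threshold. These were at 6914605 (signal 53.1, rank 3699, replicate ranks 3173 and 3285), 6936371 (52.1, rank 3791, 2535 and 14492) and 6908248 (51.8, rank 3840, 2899 and 7594). The summit at 6908248 was classed as 3′ UTR, without a record of the gene that the UTR belongs to. Another annotated gene, CG46458, spans this summit and the thresholded pair as well. Ubx (16656623 to 16734426, minus strand) had 21 pooled summits inside the gene. The strongest of these, at 16704450 in an intron 29976 bp downstream of the start, had a signal of 60.5 (rank 2982), just under the threshold, and ranked 2822 in replicate 2 and 5857 in replicate 3.

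abd-A (16807214 to 16830049, minus strand) had 15 pooled summits within 10 kb and the best rank of the 8 genes in all 3 lists, 1285 in the pooled list, 962 in replicate 2 and 892 in replicate 3. Inside the gene its other 4 summits ranked between 17732 and 25734. Abd-B (16927212 to 16972236, minus strand), the most posterior gene, had 9 pooled summits within 10 kb. Its strongest, at 16970100 in an intron, had a signal of 42.5 (rank 5300) and ranked 2042 in replicate 3, with no replicate 2 summit within 200 bp. The best Abd-B rank in replicate 2 was 10556, and none of the 6 pooled summits inside Abd-B was found in both replicates. Apart from the one at rank 5300, these summits ranked between 15023 and 29819. Of all pooled summits 44.9% were found in both replicates, but 8.49% of those between ranks 20001 and 30000. Weak summits were thus seldom found in both anywhere, and the count is no result about Abd-B.

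The order of the genes by best pooled rank was abd-A, Antp, Ubx, Scr, Dfd, lab, Abd-B and pb, with a median rank of 4448.5. The median best rank was 5261 in replicate 2 and 2693 in replicate 3. abd-A was first in every list, whereas Abd-B was last in replicate 2 but behind only abd-A and Ubx in replicate 3, and pb was last in the pooled list and in replicate 3. The order of the 5 genes without a thresholded summit was therefore not the same in the replicates.

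**Figure D2:**
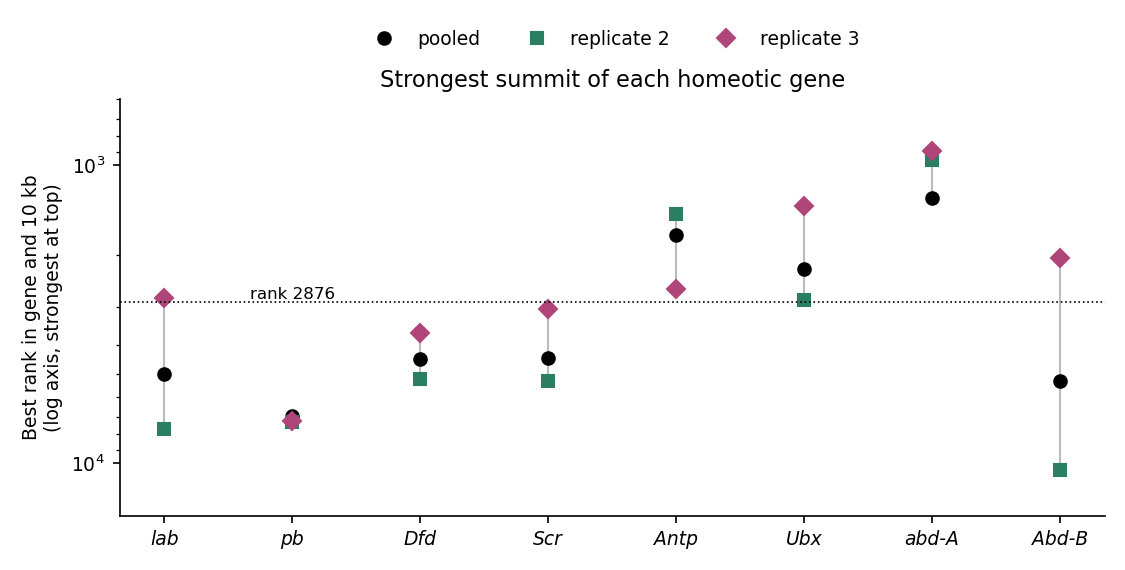
Best rank of a summit in each homeotic gene extended by 10 kb, in the pooled list and each replicate, on a log axis with the strongest at the top, genes in chromosomal order. The dotted line is rank 2876, the size of the thresholded list, and the replicates of Abd-B lie farthest apart, at 10556 and 2042.

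At the starts of the genes, signal was weak but present. All 8 genes had a pooled summit within 1 kb of a start, against 62.9% of all coding genes and 77.6% of those at least as long as Dfd. A thresholded one lay there for 0 of 8 (interval 0 to 32.4), against 19.7% and 26.4%. The count of 8 was 7 in replicate 3 alone or within 500 bp, settings for which no share of all coding genes was computed. Of the 19 annotated starts of the homeotic genes, 11 had a pooled summit within 1 kb. The strongest were those already given at Scr and Dfd, with ranks 4443 and 4454. The Antp start at 6932840 followed, with a summit 211 bp upstream at 6933051 (signal 34.8, rank 7512), which ranked 25860 in replicate 2 and 4776 in replicate 3. That start also had a summit 465 bp downstream, at 6932375 (rank 20994), seen near replicate 2 only. The outermost Antp start, at 6999228, had none within 1 kb and one 1857 bp upstream (rank 8984). The Ubx start had a summit 38 bp downstream (signal 33.0, rank 8237), found at ranks 10045 and 7512. At abd-A the nearest start summit was 684 bp upstream (signal 29.3, rank 10210), with ranks of 21060 and 9465.

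The inner start of lab had a summit at 6662994, 460 bp downstream (signal 26.3, rank 12418), with CAGGTAG centred 19 bp away, and ranks of 17333 and 25015. The pb start had a summit 255 bp downstream (signal 22.0, rank 17052), with a replicate 3 summit but no replicate 2 summit within 200 bp. The summit 196 bp upstream of the Abd-B start at 16934242 (signal 22.5, rank 16434) had neither, and the other 5 Abd-B starts had no pooled summit within 1 kb. The outer lab start had a summit of rank 20225, seen near replicate 3 only, and the outer Scr start one of rank 20697, seen near neither replicate. A weaker summit at the inner Scr start, 401 bp upstream at 6848906 (rank 22471), was seen near replicate 2 only.

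Between Ubx and abd-A, 19 pooled summits lay in 72.8 kb (2.61 per 10 kb), 10 of them in the transcription unit of the long non-coding RNA bxd, which spans regulatory DNA of Ubx. The strongest in bxd were at 16748752 (signal 52.0, rank 3810, replicate ranks 5677 and 4240) and 16771905 (48.2, rank 4309, 15424 and 12482). The latter held a TAGGTAG and ranked lower in each replicate than in the pooled list. Between abd-A and Abd-B, 23 summits lay in 97.2 kb (2.37 per 10 kb), 22 of them in the iab8 unit, where the summit at 16882710 (signal 46.5, rank 4562, replicate ranks 4993 and 8245) was the next after the thresholded one. The summit at 16899878 in the same stretch (rank 5476) was at rank 2038 of replicate 3 and had no replicate 2 summit within 200 bp. The remaining one of the 10 strongest in the bithorax complex, at 16647274 (signal 44.9, rank 4826), lay 270 bp upstream of CG10324, next to the thresholded summit there.

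In the Antennapedia complex, the stretch between pb and Dfd, with bcd, Ama and the zen genes, held 19 pooled summits (3.82 per 10 kb). That between Dfd and Scr held 9 (4.35 per 10 kb) and that between Scr and Antp, with the pair-rule gene ftz, 13 (2.81 per 10 kb). The stretch between lab and pb held 1 in 29.2 kb, and replicate 2 held 3 and replicate 3 held 0. This was part of the longest run without a pooled summit in either complex, 28.9 kb over a cluster of cuticle protein genes (Ccp84Aa to Ccp84Ag and Edg84A), and 2.03% of gaps on the major arms were longer. Runs without a summit of 22.6 kb in Abd-B, 20.4 kb in pb and 20.2 kb in Ubx followed. Replicate summits fell inside these runs, 3 of each replicate in that of Abd-B, so they were not empty in every list. The median gap was 2.06 kb in the Antennapedia complex and 2.33 kb in the bithorax complex, against 1.44 kb on the major arms.

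Over a whole complex the density of pooled summits was near that of the genome. There were 26.6 per 100 kb in the Antennapedia complex and 25.3 in the bithorax complex, against 21.9 on arm 3R and 22.3 on the major arms. Among windows of the same length tiled along the major arms, 58.9% of 367 held fewer pooled summits than the Antennapedia complex and 57.5% of 393 fewer than the bithorax complex. Windows and arm densities alike took in long runs with few or no pooled summits, with counts per window from 0 to 230 and from 0 to 209. Such runs lower the medians and densities and raise the shares with fewer, and no values without them were computed. Thresholded summits numbered 4 and 5, against a median of 7 for either window length. The complexes also held few genes: 29 and 22 coding starts, against window medians of 55 and 52. Counting only thresholded summits over 500 bp from any coding start, the bithorax complex had 4 (1.19 per 100 kb), where 72.8% of windows had fewer, and the Antennapedia complex 2 (0.559 per 100 kb), against 0.767 per 100 kb on the major arms and a window median of 2 for both lengths.

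**Figure D3:**
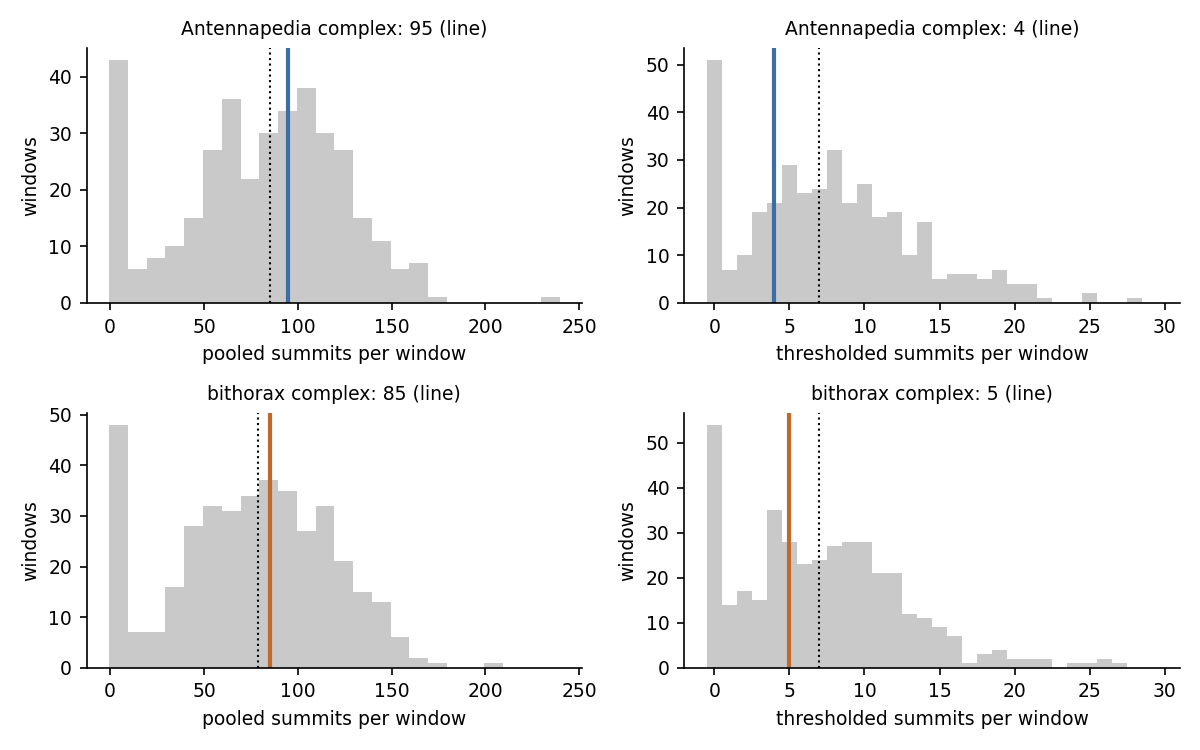
Number of windows of the major arms (vertical axis) by their count of pooled (left) or thresholded (right) summits, for windows as long as the Antennapedia complex (top) and the bithorax complex (bottom). The coloured line is the complex itself (95 and 85 pooled, 4 and 5 thresholded) and the dotted line the median window.

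The place of the listed summits differed from that of all pooled summits. Within 500 bp of a coding start lay 27 of the 180 (15%, interval 10.5 to 20.9) against 30.9% of all 30000. Between coding genes lay 32.2% (25.8 to 39.4) against 16.5%, and in introns 43.9% (36.8 to 51.2) against 36.5%. Coding exons held 5.0% against 10.6%. The small number of starts in the complexes moves with these shares, and its part in them was not tested.

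The replicates found the listed summits about as often as other summits. A summit of each replicate lay within 200 bp of 74 of the 180 (41.1%, interval 34.2 to 48.4), against 44.9% of all pooled summits. Of the rest, 51 had one in replicate 2 only, 43 in replicate 3 only and 12 in neither. All 9 thresholded summits were found in both, as were 37 of the 44 between ranks 2877 and 10000 (84.1%, the share of all pooled summits there being 84.1%). Between ranks 20001 and 30000 the share fell to 8 of 73, against 8.49% of all. The strength of the shared summits differed between the replicates by gene. Of 14 shared summits inside Antp, 11 ranked higher in replicate 2, whereas 6 of 7 inside Ubx ranked higher in replicate 3. Over the complexes these counts were 25 of 40 higher in replicate 2 for the Antennapedia complex and 12 of 34 for the bithorax complex, and over all pooled summits 6901 of 13455. Spearman's rho of the ranks was 0.42 over the 74 listed summits and 0.58 over all 13455. Thresholded peaks were 9 of the former and 2851 of the latter, so the values of rho cover unlike ranges of strength. These counts and values of rho are descriptions across sites of the same pair of libraries, since only summits found by both enter them. Neighbouring pooled summits could be matched to the same replicate summits, as at the Dfd start, so some pairs of ranks enter repeatedly.

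**Figure D4:**
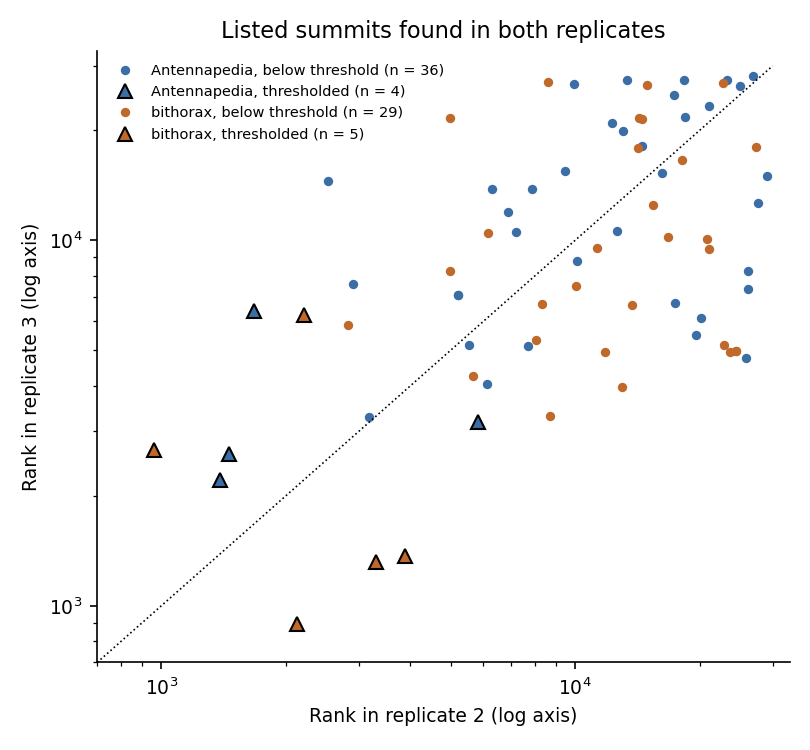
Rank in replicate 2 (horizontal) and replicate 3 (vertical), both on log axes, of the 74 listed summits with a summit of each replicate within 200 bp, coloured by complex, triangles thresholded. Points above the dotted line of equal rank were stronger in replicate 2, as were 25 of 40 in the Antennapedia complex and 12 of 34 in the bithorax complex. Neighbouring pooled summits matched to the same replicate summits share a point.

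The strongest 2876 peaks of each replicate gave 9 summits in the complexes, as did the thresholded list. Replicate 3 had 3 in that range with no replicate 2 summit within 200 bp, at 6664585 in lab (rank 2786), 16899839 between abd-A and Abd-B (rank 2038) and 16970103 in Abd-B (rank 2042). Replicate 2 had 1 with no replicate 3 summit within 200 bp, at 6763008 upstream of Ama (rank 2284). The thresholded summit beside it, at 6763138, did have a replicate 3 summit, 88 bp away (rank 3192). Replicate 2 also had the summit at 6936361 in Antp at rank 2535, which ranked 14492 in replicate 3.

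The share of listed summits with CAGGTAG was above that of all pooled summits, whose value lay below its interval. The word lay within 100 bp of 9 of 180 (5.0%, interval 2.65 to 9.23), 5 in the Antennapedia and 4 in the bithorax complex, against 1.98% of all pooled summits and 1.28% of all windows of 201 bases in the complexes. Over 500 bp from coding starts the shares were 5.23% (2.67 to 9.98) of 153 listed and 2.16% of 20742 pooled summits. Read from the word, the complexes held 44 CAGGTAG (6.35 per 100 kb, against 5.70 on the major arms), and 9 of them (20.5%, interval 11.2 to 34.5) had a pooled summit within 100 bp, against 8.33% of 7554 words on the major arms. The sequence within that reach of a summit made up 5.06% of the complexes and 4.35% of the major arms. In the replicates alone, 15.9% of the 44 words had a summit in replicate 2 and 20.5% in replicate 3, against 7.44% and 8.49% on the major arms.

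The 9 words near a pooled summit spanned the strength of the list, and the summits of 5 were found in both replicates and of 4 in 1 replicate only. Those between Ubx and abd-A and between abd-A and Abd-B were at ranks 1285 and 1998, and those at 6875618 between Scr and Antp (rank 9154), 6812690 and 6818221 between Dfd and Scr (ranks 10325 and 11006) and 6662994 in lab (rank 12418) were weaker. The last 3, at 6755615 between pb and Dfd, 16729699 in Ubx and 16978808 beyond Abd-B, were at ranks 15664, 17064 and 22779. These 3 and the summit at 6818221 were the ones found in 1 replicate only. Inside the members, 1 of 2 CAGGTAG in lab and 1 of 5 in Ubx had a pooled summit within 100 bp. The 11 inside pb, Dfd, Scr, Antp, abd-A and Abd-B had none. These genes are grouped by that outcome, and 8.33% of words on the major arms had a summit, so the lack is no result about them. The abd-A word 110 bp from the thresholded summit was centred 28 bp from a replicate 3 summit, at 16811942 (rank 892).

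Among the relatives, TAGGTAG lay at 3.89% of listed summits against 1.05% of all, CAGGTAA at 3.33% against 2.01% and CAGGCAG at 3.33% against 2.98%, while CAGGTAT lay at 1 of 180 (0.56%) against 1.11%. The intervals of CAGGTAA, as of CAGGCAG and CAGGTAT, took in the share of all. GAGAG, the core word of GAGA factor, a trithorax group protein encoded by Trl, lay at 37.2% of listed summits (30.5 to 44.5) against 24.0% of all and 23.6% of all windows of the complexes. The share was 42.1% (32.7 to 52.2) in the Antennapedia complex and 31.8% in the bithorax complex, where the interval of 22.8 to 42.3 took in that of all pooled summits. GCCAT lay at 46.1% (39.0 to 53.4) against 33.5% of all, but also in 40.1% of all windows of the complexes, within the interval. Median GC content was 44.8% at listed and 41.8% at all pooled summits. TTTATG, a word of Caudal and Abd-B, lay at 36 of 180 against 19.2%, and in 27.1% of all windows of the complexes. TAATTA, the homeodomain core, lay at 10% against 12%. TATCGATA and GGTCACAC, words of promoter factors, lay at 3 listed summits each, all within 500 bp of a start. A match is a description of the letters and shows no bound factor.

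**Figure D5:**
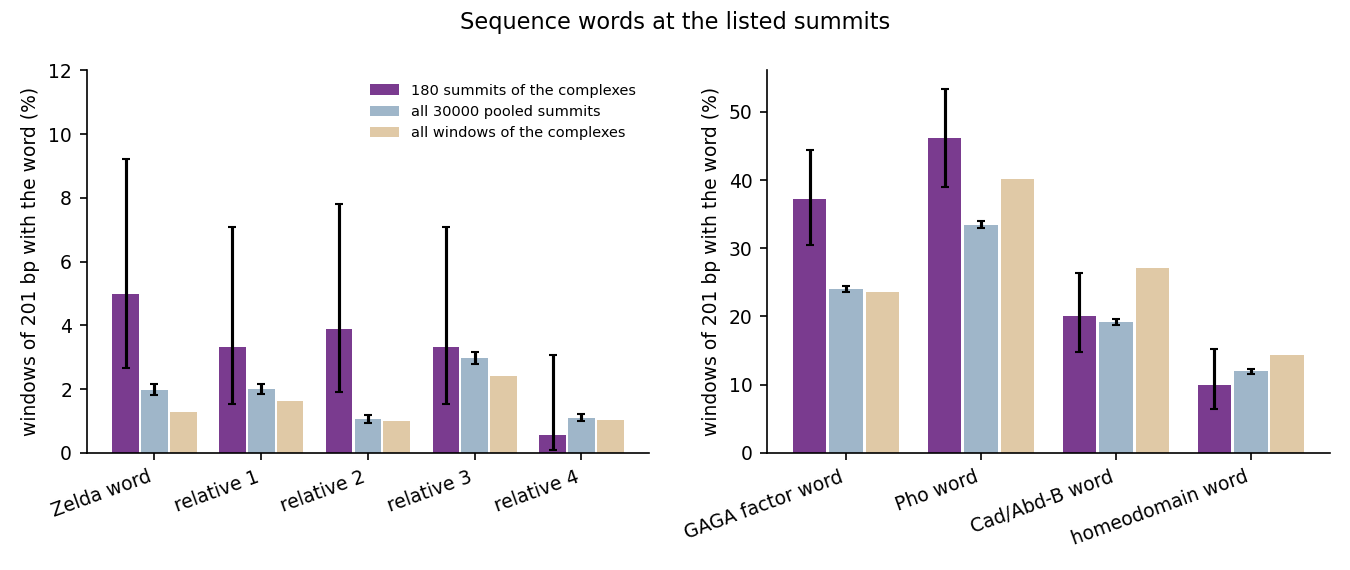
Percent of 201-base windows that hold each word at the 180 listed summits, at all 30000 pooled summits and in all windows of the complexes, with 95% Wilson intervals for the summits. Relatives 1 to 4 are the words so named beside the sequences. The Zelda word (5.0% against 1.98%), relatives 1, 2 and 3, the GAGA factor word (37.2% against 24.0%) and the Pho word stand above both other bars. The intervals of relatives 1 and 3 take in the share of all pooled summits, and that of the Pho word takes in the share of all windows.

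Genes that act before, with or after the homeotic genes were counted by the same call, a thresholded summit in the gene or within 10 kb, which 53.3% of all coding genes met. Among 5 other genes inside the complexes 3 were called, Ama, zen and bcd, all sharing the bcd summit of rank 1445. Of 6 gap genes 1 was called, and their strongest were hkb, Kr and tll at ranks 2702, 3256 and 6201. Of 9 pair-rule genes 3 were called, slp1 and slp2 sharing a summit of rank 494 and hry at 2087. Of 6 cofactors 1 was called, hth at rank 1257, which brings the homeodomain partner Exd into the nucleus, and tsh and exd followed at 3246 and 4834. Of 10 textbook targets 5 were called, led by fkh (rank 490), Antp and CrebA (2200), and of 18 other homeobox genes 3, C15, cad and tin at ranks 146, 730 and 869. Of 14 Polycomb and trithorax group regulators 12 were called, with a median best rank of 568.5, against 4448.5 for the homeotic genes and 2113 for all coding genes with a pooled summit. Their strongest were ash1, ph-p and Trl at ranks 1, 18 and 28, though the summit counted for ash1 lay 96 bp upstream of CG14100. The lists overlap and many of these summits are nearest to another gene, so the counts describe neighbourhoods, and no difference between lists was tested.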

How the data were processed

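Peak lists on the dm6 build were used: a relaxed list of 30000 peaks for each of 2 replicates and for both pooled, and the 2876 thresholded peaks, which were the 2876 strongest pooled peaks. The authors' signal per peak, as deposited, ranked peaks within a list only. The deposited −log10 q value reached a ceiling of 3.94 at 4383 pooled peaks and was not used for ranking. Chromatin was sonicated, and per the labels its fragments ranged from 200 to 800 in size. Aligner, peak caller and cut: not given in the sources used here. The control and the dm3 lists were not analysed here. Read depth is unknown, and Wilson intervals at 95% cover counting error only.

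Gene models were Ensembl release 115 (BDGP6.54), limited to coding genes with 19630 starts, and sequence was NCBI Release 6, whose arm lengths equal dm6. A summit was the deposited offset added to the peak start, counted from 1. Annotation classes were promoter (within 500 bp of a coding start), UTRs, coding exon, intron and intergenic, over coding genes, so a summit in a long non-coding RNA could be intergenic. A word counted when either strand held it within 100 bp of a summit. With 1 group, no test was run. Named were all members, the thresholded and 10 strongest pooled summits of each complex, summits within 1 kb of a member's start, and the top 3 genes of each of 7 lists. The members, lists and words were chosen with earlier results of these data known. Alternatives were other distances, windows and limits, each replicate alone and stricter lists. Counting was tested on simulated data. Python 3.11.15, numpy 2.4.6, pandas 2.3.3 and matplotlib 3.10.9 were used.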

Additional observations from a re-analysis of the deposited data

How the results depend on the processing

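No paired analysis was possible because the series holds 1 group. No test was run, so only values are compared. The count of 3 homeotic genes with a thresholded summit became 5 with genes extended by 20 kb and 1 with the strongest 1438 thresholded peaks, and it ran from 3 to 5 when each replicate was left out. The matching shares of all coding genes were not computed, so these changes are no result about the homeotic genes. The 9 thresholded summits fell to 1 among the strongest 1438. Pooled density per 100 kb was 26.3 to 27.9 in the Antennapedia complex when each replicate was left out. Among the strongest 10000 peaks it was 6.99 and 8.34 (Antennapedia, bithorax), and among the strongest 5000 it was 2.52 and 2.98. Fewer peaks were counted there, and the matching densities of the major arms were not computed. In the thresholded list the densities were 1.12 and 1.49, below the 2.16 of the major arms, whereas those of the full pooled list were above. The share found in both replicates was 30.6% within 100 bp and 53.9% within 500 bp. CAGGTAG lay at 4.44% of listed summits within 50 bp and 8.89% within 200 bp (1.12% and 3.45% of all pooled summits), 4.00 to 4.69% when each replicate was left out, and any of the 5 related words at 14.4% (8.59% of all). The share of CAGGTAG words with a summit was 34.1% within 200 bp (13.7% on the major arms) and 15.9 to 20.5% when each replicate was left out. The share over 500 bp from coding starts was added after seeing the data. Whether weak peaks reflect binding cannot be read from lists without read counts.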
